A study of Mus musculus with 10 samples.

Results

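The proteasome genes were followed in livers of 10 mice on a high-fat diet (HFD), 5 controls (ASK1f/f) and 5 mice that overexpressed apoptosis signal-regulating kinase 1 in the liver (ASK1+hep). They were taken by name and annotation, not by their values: every protein-coding gene whose symbol starts with Psm, a letter from a to g and a number. The rule gave 50 of the 54532 genes in the table, of which 22046 are protein-coding, and 47 of the 50 had at least 10 reads in at least 5 livers and entered the comparison of genotypes. Levels are FPKM (fragments per kilobase of gene length, scaled to the size of the library). Being per length, they can be compared between genes as far as the deposited gene lengths fit the transcripts.

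All mice were C57BL/6J and carried the same ROSA26 construct, a murine ASK1 cDNA behind a stop cassette flanked by loxP sites. ASK1f/f mice kept the cassette. In ASK1+hep mice it was excised by Cre under the albumin promoter, so that overexpression was directed to cells with an active albumin promoter, mainly hepatocytes. HFD feeding began at 6 weeks of age in both groups and lasted 7 weeks, and food was withdrawn 5 h before the livers were taken, and each library was made from the poly-A RNA of a liver sample of 1 mouse.

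The proteasome is the protease that degrades proteins tagged with ubiquitin in the cytosol and nucleus of all cells. Its 20S core is a barrel in which rings of alpha subunits (Psma genes) gate the entrance and rings of beta subunits (Psmb genes) carry the catalytic sites, and the 19S regulatory particle (Psmc and Psmd genes) recognises, unfolds and feeds in the substrates. In cells exposed to interferon the catalytic subunits Psmb5, Psmb6 and Psmb7 are exchanged for Psmb8, Psmb9 and Psmb10 to form the immunoproteasome, which favours peptides for MHC class I, and the core can also be capped by activators (Psme genes). Core rings are built with help of dedicated chaperones (Psmg genes and Pomp), and the transcription factor NRF1 (Nfe2l1) raises the transcription of many subunits when proteasome activity falls short.

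Between 13367742 and 16163378 reads fell on genes per library. Among the listed leukocyte and Kupffer cell markers, Ptprc and Cd3e were at or below 0.504 FPKM in all 10 livers. Others were higher, with Clec4f at 27.1 to 52.6 FPKM and Cd74 at 26.9 to 73.9 FPKM. Adgre1 was at 0.69 to 5.66 FPKM, lowest in ASK1+hep replicate 3. The listed markers did not move together in that liver. Ptprc was lowest there too, Cd3e was highest, and Clec4f (33.7 FPKM) and Cd74 (60.5 FPKM) were within the control ranges. Summed over the 9 listed markers it was at 124 FPKM, within the control range of 86.8 to 157 FPKM. Albumin was at 14692 to 25083 FPKM. Map3k5, the gene of ASK1, lay between 4.71 and 6.88 FPKM in ASK1f/f replicates 1 to 4 and between 7.68 and 16.4 FPKM in the ASK1+hep livers. It was at 19.8 FPKM in the liver labelled ASK1f/f replicate 5, the highest of the 10 and against its label. Fgf21, a hormone made by hepatocytes, was at 3.21 FPKM in this liver, within the range of the 5 controls (2.46 to 4.74 FPKM) and below all ASK1+hep livers (7.40 to 30.1 FPKM). ASK1+hep replicate 3 stood apart from all other livers, with cytosolic ribosomal protein genes at a median deviation from the ASK1f/f mean of 0.75 on the log2 scale (75 genes) and mitochondrially encoded genes at 1.34 (29 genes), both gene groups chosen after their values were seen.

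With limma, 0 of the 47 proteasome genes reached an adjusted p of 0.05 in the comparison of genotypes (lowest adjusted p = 0.813), beside 0% of the 13261 genes compared. At an unadjusted p under 0.05 with limma, 3 of the 47 were higher in ASK1+hep livers, Psmf1, Psmg4 and Psmd6, which is 6.38% against 3.05% of all genes, and 0 were lower against 2.71% of all genes (5.77% of all genes in either direction). With limma-voom on the recovered reads, 0 passed the adjusted threshold and again 3 were higher and 0 lower at an unadjusted p under 0.05, with Psmd4 in the place of Psmd6. The small differences lay mostly on one side. The log2 fold change of ASK1+hep against ASK1f/f was above 0 for 38 of the 47 (80.9%, against 48.1% of all genes compared), with a median of 0.15 and a range from −0.17 for Psma1 to 0.50 for Psmg4, beside a median of −0.01 over all genes. When the values were scaled by all reads on genes instead of the factor in the deposited FPKM, 31 of 47 (66.0%) were above 0. The median was then 0.09, beside a median of −0.05 over all genes under the same scaling. Without the library labelled ASK1f/f replicate 5 the count was 40 with a median of 0.17, and without ASK1+hep replicate 3 it was 38 with a median of 0.11.

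**Figure D1:**
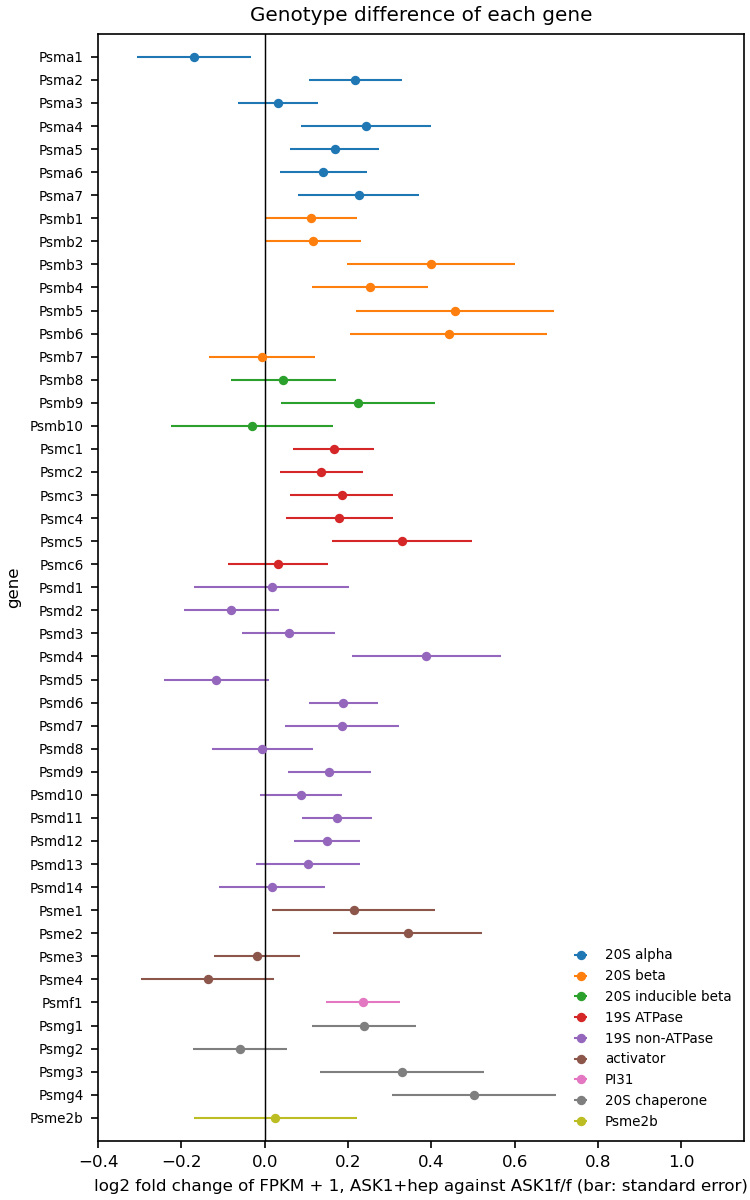
Log2 fold change of FPKM + 1 in ASK1+hep against ASK1f/f livers (x axis) for each of the 47 proteasome genes compared (y axis), n = 5 livers per genotype, with points for the limma estimate, bars for its standard error and colours for the gene class. Most points lie to the right of 0, between 0 and 0.50, and no gene passed the adjusted threshold.

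The higher median was not shared by all ASK1+hep livers. The median deviation of the 47 genes from their ASK1f/f means was 0.06 in ASK1+hep replicate 1, 0.03 in replicate 2, 0.33 in replicate 3, 0.26 in replicate 4 and −0.01 in replicate 5, on the log2 scale, while the 5 ASK1f/f livers lay between −0.04 and 0.06. ASK1+hep replicates 3 and 4 were thus above all control livers, and replicates 1, 2 and 5 were within their range. ASK1+hep replicate 3 was the highest of the 10 livers for 26 of the 47 genes (55.3%, against 26.3% of all genes), and also the lowest for 6. ASK1+hep replicate 5 was the lowest for 14. Ribosomal protein genes in the same livers had median deviations of −0.20, 0.33, 0.75, 0.30 and −0.18 in ASK1+hep replicates 1 to 5, and the part of this shift in the proteasome values was not tested. In bulk liver, fewer cells of a type and less RNA per cell cannot be told apart.

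**Figure D2:**
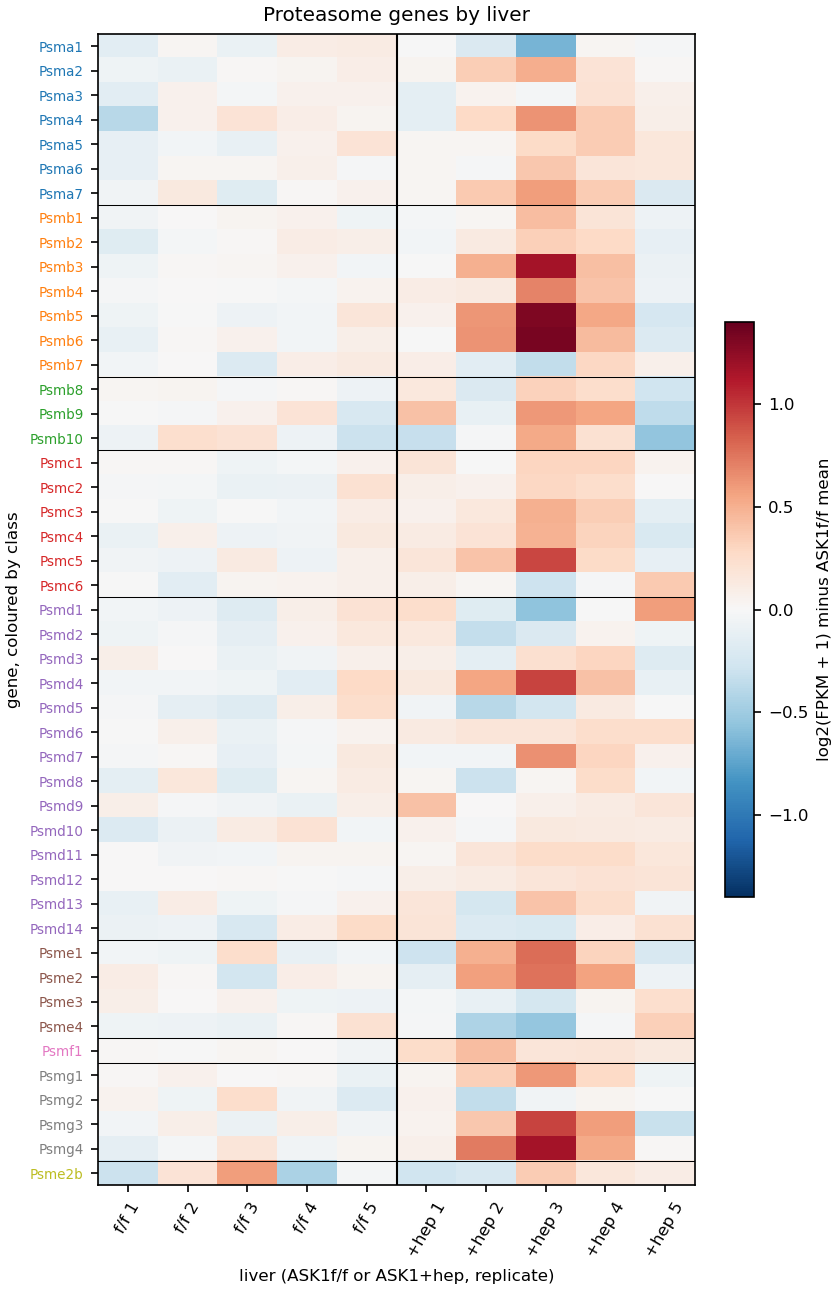
Deviation of log2(FPKM + 1) from the ASK1f/f mean (colour, log2 scale) for the 47 proteasome genes (rows, grouped and coloured by class) in the 10 livers (columns, 5 ASK1f/f left of the line and 5 ASK1+hep right of it). ASK1+hep replicate 3 holds both the reddest cells (Psmb3, Psmb5, Psmb6, Psmg4) and some of the bluest (Psma1, Psmd1, Psme4).

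Among the catalytic subunits of the constitutive core, Psmb5 (chymotrypsin-like site) and Psmb6 (caspase-like site) varied with the liver and Psmb7 (trypsin-like site) did not follow them. Psmb5 was at 95.7, 99.5, 94.5, 97.1 and 113 FPKM in the control livers, given here and below from replicate 1 to replicate 5, and at 104, 154, 247, 146 and 84.2 FPKM in the ASK1+hep livers. It was the most abundant proteasome gene, at 123 FPKM over all 10 livers, and 3 of 5 ASK1+hep livers lay above all controls while replicate 5 lay below them. The mean was 99.9 ± 7.34 FPKM in the controls against 147 ± 63.1 FPKM (SD, n = 5 each), a log2 fold change of 0.46 (SE 0.24, adjusted p = 0.813 with limma). Psmb6 was at 53.8, 58.7, 60.6, 56.4 and 61.4 FPKM in the controls and at 57.9, 90.4, 147, 79.5 and 50.9 FPKM in ASK1+hep livers. Replicates 2, 3 and 4 were again above all controls and replicate 5 below them, with a log2 fold change of 0.44 (SE 0.24, adjusted p = 0.813 with limma). Without ASK1+hep replicate 3, the log2 fold change was 0.25 for Psmb5 and 0.22 for Psmb6.

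Psmb7 was at 22.0, 22.6, 19.7, 24.2 and 24.7 FPKM in the controls and at 24.1, 20.3, 17.6, 27.9 and 23.8 FPKM in ASK1+hep livers. Here ASK1+hep replicate 3 was the lowest of all 10 livers and replicate 4 the highest, the groups overlapped, and the log2 fold change was −0.01 (SE 0.13, adjusted p = 0.992 with limma), with the opposite sign (0.08) when replicate 3 was left out. The level of Psmb5 relative to Psmb7 accordingly ranged from 1.82 to 3.81 on the log2 scale in ASK1+hep livers and from 2.00 to 2.26 in ASK1f/f livers. Exons of Psmb7 overlap Nek6 on the opposite strand and those of Psmb5 overlap the microRNA gene Mir686 on the same strand, and how the counting treated strand and overlaps is not given in the sources used here.

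The promoter windows of Psmb5 and Psmb6 are shown because these catalytic subunits varied closely together (r = 0.98 over the 10 livers after removal of the genotype means), and those of Psmg4, the gene with the largest difference, and of Psmb8, the inducible partner of Psmb5, for comparison. Each is 300 bases from RefSeq (GRCm38.p6) around the annotated start of the gene, 5′ to 3′ on the gene's strand. Capitals mark a match to the core of the antioxidant response element that NRF1 and related factors bind, TGACNNNGC, or to a core of the interferon response element, GAAANNGAAA, both searched on both strands. Psmb5 lies at chr14:54617946-54618245 on the minus strand, Psmb6 at chr11:70525107-70525406 on the plus strand, Psmg4 at chr13:34162714-34163013 on the plus strand and Psmb8 at chr17:34197945-34198244 on the plus strand.
Psmb5: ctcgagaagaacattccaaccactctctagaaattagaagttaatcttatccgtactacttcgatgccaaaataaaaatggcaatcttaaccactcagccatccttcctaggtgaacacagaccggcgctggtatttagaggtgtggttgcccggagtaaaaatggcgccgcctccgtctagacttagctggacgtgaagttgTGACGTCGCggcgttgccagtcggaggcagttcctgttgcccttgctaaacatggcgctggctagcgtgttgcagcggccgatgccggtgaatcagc
Psmb6: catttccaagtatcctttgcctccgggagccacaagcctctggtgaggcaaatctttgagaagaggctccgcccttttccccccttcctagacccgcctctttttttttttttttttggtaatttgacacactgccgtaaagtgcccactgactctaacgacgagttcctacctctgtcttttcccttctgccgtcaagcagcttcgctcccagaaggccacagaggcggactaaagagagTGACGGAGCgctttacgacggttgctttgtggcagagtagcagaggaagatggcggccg
Psmg4: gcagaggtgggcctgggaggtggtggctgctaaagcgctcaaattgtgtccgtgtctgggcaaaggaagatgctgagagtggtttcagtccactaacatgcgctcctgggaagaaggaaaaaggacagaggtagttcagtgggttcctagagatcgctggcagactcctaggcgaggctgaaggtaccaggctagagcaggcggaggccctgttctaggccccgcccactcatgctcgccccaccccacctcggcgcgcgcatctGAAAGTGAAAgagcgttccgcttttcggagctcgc
Psmb8: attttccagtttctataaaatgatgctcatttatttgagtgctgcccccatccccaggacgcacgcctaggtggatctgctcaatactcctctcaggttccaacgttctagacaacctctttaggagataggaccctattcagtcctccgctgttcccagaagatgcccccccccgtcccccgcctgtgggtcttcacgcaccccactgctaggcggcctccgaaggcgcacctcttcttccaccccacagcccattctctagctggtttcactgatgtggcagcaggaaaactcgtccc

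The TGACNNNGC core starts 47 bases before the start of Psmb5 and 9 bases before that of Psmb6, and the GAAANNGAAA core begins 15 bases after the start of Psmg4. The window of Psmb8 holds neither, but it lies inside the gene as counted, which starts upstream of it at 34197721. Windows were found for 42 of the 50 proteasome genes. TGACNNNGC was present in those of 6, Psmb5, Psmb6, Psmc6, Psmd9, Psmd12 and Psme4, and in 12.4% of all 32851 windows in the table. Psmb3 and Psmg4, which varied as closely with Psmb6 as Psmb5 did (r = 0.99 and r = 0.98), were not among these 6. GAAANNGAAA was present in 5, Psmb3, Psmd4, Psmd9, Psme1 and Psmg4, and in 3.44% of all windows. The window of Psme1, like that of Psmb8, lies inside the gene as counted, which starts upstream of it at 55578123. Of the 6 genes with a TGACNNNGC match, 5 had a log2 fold change above 0, beside 38 of all 47 compared (80.9%). Their values were 0.46 for Psmb5, 0.44 for Psmb6, 0.15 for both Psmd9 and Psmd12 and 0.03 for Psmc6 (−0.04 when scaled by all reads), and Psme4 was at −0.14. The 5 genes with a GAAANNGAAA match were all above 0, with 0.50 for Psmg4, 0.40 for Psmb3, 0.39 for Psmd4, 0.21 for Psme1 and 0.15 for Psmd9. A link of either motif to the differences was not tested.

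In the constitutive beta ring as a whole, 6 of the 7 genes compared had a log2 fold change above 0, with a median of 0.25 that was 0.14 without ASK1+hep replicate 3. The structural subunits Psmb1, Psmb2, Psmb3 and Psmb4 had values of 0.11, 0.12, 0.40 and 0.25. Summed over the ring, the level was 350, 369, 365, 371 and 390 FPKM in the controls and 377, 482, 721, 493 and 336 FPKM in ASK1+hep livers. The groups overlapped, and the ASK1+hep livers spanned more than the whole control range on both sides. Psmb11, the thymus-specific catalytic subunit, had 0 reads in every liver, which allows up to 3 reads per library by counting error (0.0367 to 0.0484 FPKM).

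Of the 7 genes of the alpha ring compared, 6 had a log2 fold change above 0, with a median of 0.17 that was 0.14 without ASK1+hep replicate 3, and Psma3 (0.03) was below 0 when scaled by all reads. Psma4 had the highest, with 31.4, 43.1, 47.5, 44.1 and 42.5 FPKM in the controls and 37.6, 50.2, 64.4, 53.3 and 44.0 FPKM in ASK1+hep livers. Replicates 2, 3 and 4 of ASK1+hep were above all controls and the log2 fold change was 0.24 (SE 0.16, adjusted p = 0.813 with limma), or 0.15 without ASK1+hep replicate 3. Psma1 had the lowest, with 26.1, 29.8, 27.2, 31.3 and 31.5 FPKM in the controls and 29.0, 25.1, 18.2, 29.7 and 28.9 FPKM in ASK1+hep livers. The log2 fold change of −0.17 (SE 0.14, adjusted p = 0.818 with limma) was −0.05 without ASK1+hep replicate 3, in which it was lowest. Psma6 was the most abundant gene of the ring, at 80.5 FPKM over all livers. Psma8, the alpha subunit of the testis, had 4 to 22 reads per liver and was not compared.

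**Figure D3:**
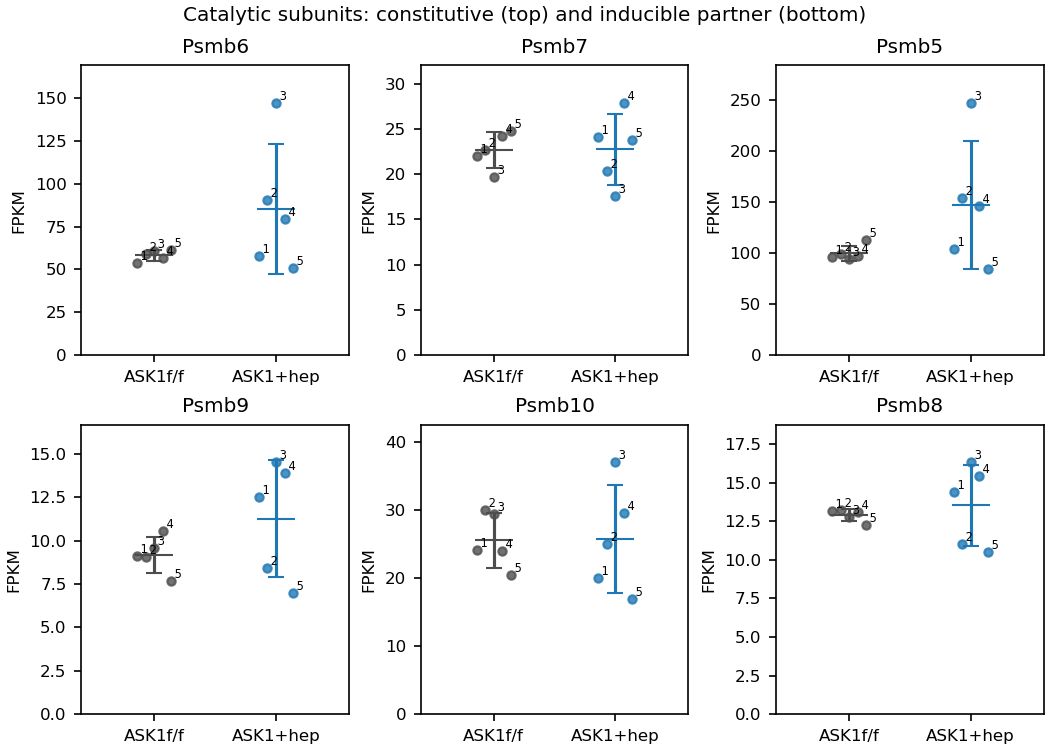
FPKM (y axis, from 0) of the constitutive catalytic subunits Psmb6, Psmb7 and Psmb5 (top) and of the inducible subunit that replaces each (bottom) in ASK1f/f and ASK1+hep livers, with numbered points for replicates 1 to 5 and a bar with whiskers for the mean and SD. Psmb5 and Psmb6 spread from 84.2 to 247 and from 50.9 to 147 FPKM in ASK1+hep livers, and all 6 genes overlap between the genotypes.

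The inducible subunits were expressed in all livers, and none passed the test between genotypes. Psmb8, the inducible counterpart of Psmb5, was at 13.2, 13.2, 12.8, 13.1 and 12.3 FPKM in the controls and at 14.4, 11.1, 16.3, 15.4 and 10.5 FPKM in ASK1+hep livers. The control livers lay close together and the ASK1+hep livers on both sides of them, with a log2 fold change of 0.04 (SE 0.13, adjusted p = 0.945 with limma) that was −0.03 when scaled by all reads and −0.02 without ASK1+hep replicate 3. Psmb9, the counterpart of Psmb6, was at 9.12, 9.06, 9.56, 10.6 and 7.69 FPKM in the controls and at 12.5, 8.43, 14.5, 13.9 and 6.96 FPKM in ASK1+hep livers. It was above all controls in ASK1+hep replicates 1, 3 and 4 and below them in replicate 5 (log2 fold change 0.22, SE 0.18, adjusted p = 0.818 with limma), and the log2 fold change was 0.13 without replicate 3. Psmb10, the counterpart of Psmb7, was at 24.1, 30.02, 29.4, 24.05 and 20.4 FPKM in the controls and at 20.02, 25.1, 37.1, 29.6 and 17.0 FPKM in ASK1+hep livers. Only ASK1+hep replicate 3 exceeded all controls, and the log2 fold change of −0.03 (SE 0.19, adjusted p = 0.978 with limma) took the opposite sign (0.10) without ASK1+hep replicate 5 and was −0.17 without replicate 3.

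Psmb8 and Psmb9 lie next to the peptide transporter genes in the MHC region on chromosome 17, at 34197721 to 34201454 and 34181988 to 34187764 (GRCm38), and exons of Psmb9 overlap Tap1 on the opposite strand. Summed leukocyte and Kupffer cell markers, a source of immunoproteasome in liver, were 86.8 to 157 FPKM in the controls and 69.0 to 129 FPKM in ASK1+hep livers over the 9 genes of the list, and their part in the values was not tested. Of 13 genes of MHC class I processing and its interferon regulators, a list chosen with earlier results of these data known, 8 had a log2 fold change above 0 with a median of 0.03. At an unadjusted p under 0.05 there were 0 of them with limma and 0 with limma-voom, and Irf9 alone with quality weights, and 0 passed after adjustment with any of these.

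By FPKM, the inducible subunits were the minor form at 2 of the 3 catalytic positions. The shares below depend on the deposited gene lengths, which differ within each pair. Lengths were 2736 bases for Psmb8 and 899 for Psmb5, and 3659 for Psmb9 and 1872 for Psmb6. They were 1705 for Psmb10 and 3421 for Psmb7. Psmb8 made up 12.1, 11.7, 11.9, 11.9 and 9.81% of the summed FPKM of Psmb8 and Psmb5 in ASK1f/f and 12.2, 6.70, 6.19, 9.55 and 11.1% in ASK1+hep livers. The means were 11.5 ± 0.94% (SD, n = 5) and 9.13 ± 2.63% (SD, n = 5), and the groups overlapped. ASK1+hep replicates 2 and 3, where Psmb5 was highest, had the lowest shares. Psmb9 made up 13.7 ± 1.71% of Psmb9 and Psmb6 in ASK1f/f and 12.4 ± 3.94% in ASK1+hep livers (SD, n = 5 each). Psmb10 differed from the other inducible subunits in that its level was about that of its partner, 52.9 ± 5.79% of Psmb10 and Psmb7 in ASK1f/f and 52.3 ± 10.1% in ASK1+hep livers (SD, n = 5 each). In reads per liver, not divided by length, Psmb10 had 399 to 871 and Psmb7 831 to 1408. Psmb8 had 391 to 671 and Psmb5 1043 to 3063, and Psmb9 had 351 to 782 and Psmb6 1313 to 3795.

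**Figure D4:**
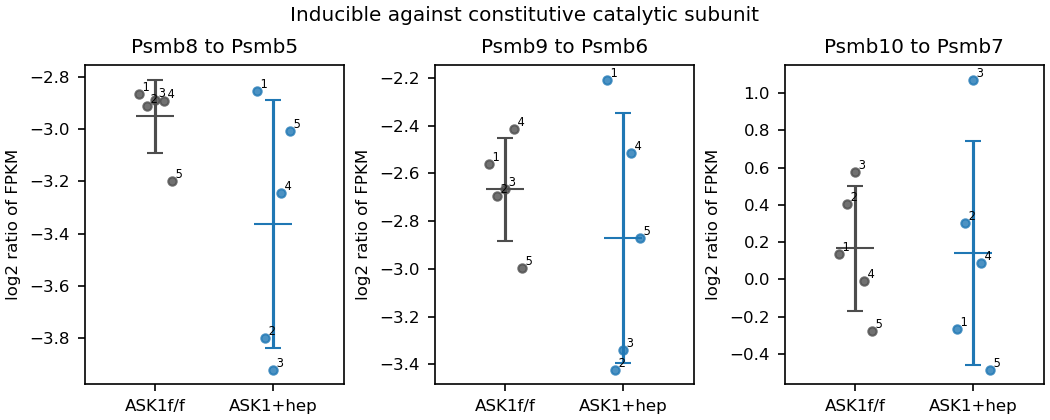
Log2 ratio of FPKM (y axis) of each inducible catalytic subunit to the constitutive one that it replaces in ASK1f/f and ASK1+hep livers, with numbered points for replicates 1 to 5 and a bar with whiskers for the mean and SD. The genotypes overlap in all 3 panels, and the ratio of Psmb8 to Psmb5 is lowest, −3.80 and −3.92, in ASK1+hep replicates 2 and 3.

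In the 19S regulatory particle, all 6 ATPases (Psmc1 to Psmc6), which form the ring that unfolds substrates, had log2 fold changes above 0, from 0.03 to 0.33, although Psmc6 was at −0.04 when scaled by all reads. Psmc5 was at 45.3, 44.4, 51.1, 44.4 and 49.3 FPKM in the controls and at 52.7, 61.9, 90.5, 56.4 and 43.2 FPKM in ASK1+hep livers. It was above all controls in 4 of 5 ASK1+hep livers, with a log2 fold change of 0.33 (SE 0.17, adjusted p = 0.813 with limma) that was 0.18 without ASK1+hep replicate 3. Psmc6 was at 17.4, 15.6, 17.96, 18.1 and 18.4 FPKM in the controls and at 18.5, 17.8, 14.1, 17.3 and 22.8 FPKM in ASK1+hep livers. Its order ran nearly opposite to that of Psmc5, with replicate 3 the lowest and replicate 5 the highest of all 10 livers, and its log2 fold change of 0.03 was 0.11 without replicate 3. The summed level of the 6 ATPases was 220 ± 8.92 FPKM in the controls and 256 ± 37.0 FPKM in ASK1+hep livers (SD, n = 5 each).

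Of the 14 Psmd genes, the non-ATPase subunits and 19S assembly factors, 11 had a log2 fold change above 0 (8 when scaled by all reads), with a median of 0.09 (0.02 when scaled by all reads). Psmd6, a scaffold subunit of the lid, was at 25.1, 26.6, 23.6, 24.9 and 26.2 FPKM in the controls and at 27.5, 28.4, 28.5, 30.04 and 30.1 FPKM in ASK1+hep livers. All ASK1+hep livers were above all controls, with means of 25.3 ± 1.18 and 28.9 ± 1.12 FPKM (SD, n = 5 each) and a log2 fold change of 0.19 (SE 0.08, unadjusted p = 0.043 and adjusted p = 0.813 with limma). When scaled by all reads, its log2 fold change was 0.11 (unadjusted p = 0.236 with limma). Psmd12, another lid scaffold subunit, was at 22.2, 22.2, 22.4, 22.1 and 21.9 FPKM in the controls and at 23.4, 24.1, 25.0, 25.6 and 25.3 FPKM in ASK1+hep livers. The groups again did not overlap, and the log2 fold change was 0.15 (SE 0.08, unadjusted p = 0.083 and adjusted p = 0.813 with limma).

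Psmd6, Psmd12 and Psmf1 were the proteasome genes whose 2 groups did not overlap, 3 of 47 (6.38%, against 0.86% of all genes compared). This held for the deposited FPKM only. With values scaled by all reads, ASK1+hep replicate 3 fell within the control range for all 3, so their groups overlapped. ASK1+hep replicate 2 then fell within it too for Psmd6 and Psmd12. Psmf1 encodes PI31, a proteasome-binding protein that inhibits the core in vitro and acts in transport of proteasomes. It was at 5.24, 5.16, 5.29, 5.18 and 4.97 FPKM in the controls and at 6.37, 7.34, 5.94, 5.99 and 5.76 FPKM in ASK1+hep livers. The 5 controls lay between 4.97 and 5.29 FPKM and the highest value was that of ASK1+hep replicate 2, not of replicate 3. The means were 5.17 ± 0.12 and 6.28 ± 0.63 FPKM (SD, n = 5 each), and the log2 fold change of 0.24 (SE 0.09, unadjusted p = 0.022 and adjusted p = 0.813 with limma) was 0.25 without ASK1+hep replicate 3 and 0.17 when scaled by all reads. Psmf1 lies at 151715812 to 151744186 on chromosome 2, Psmd6 at 14112174 to 14120984 on chromosome 14 and Psmd12 at 107479484 to 107504362 on chromosome 11 (GRCm38).

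Psmd4, the ubiquitin receptor Rpn10, had the largest difference of the Psmd genes, with 36.2, 36.4, 35.6, 33.6 and 45.5 FPKM in the controls and 41.1, 55.1, 72.5, 49.97 and 34.5 FPKM in ASK1+hep livers. It followed the order of Psmb5 and Psmb6, with replicates 2, 3 and 4 above all controls (log2 fold change 0.39, SE 0.18, adjusted p = 0.813 with limma), and the log2 fold change was 0.25 without replicate 3. Psmd5, a chaperone of the 19S base, had the lowest, with 4.16, 3.80, 3.61, 4.53 and 5.20 FPKM in the controls and 4.06, 3.00, 3.37, 4.70 and 4.20 FPKM in ASK1+hep livers. These values overlapped throughout (log2 fold change −0.12, SE 0.13, adjusted p = 0.844 with limma), and the log2 fold change was −0.02 without both the library labelled ASK1f/f replicate 5 and ASK1+hep replicate 3. Psmd1 and Psmd2, the large scaffolds of the base, had log2 fold changes of 0.02 and −0.08, and the deubiquitinase Psmd14 was at 0.02.

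The activators formed 2 pairs with opposite patterns over the ASK1+hep livers. Psme1 and Psme2, the interferon-inducible subunits of the 11S activator PA28, lie near each other on chromosome 14, and had log2 fold changes of 0.21 and 0.34, or 0.07 and 0.24 without ASK1+hep replicate 3. Psme1 was at 40.4, 39.7, 49.5, 38.7 and 40.4 FPKM in the controls and at 33.7, 59.1, 72.3, 51.8 and 35.3 FPKM in ASK1+hep livers. Psme2 was at 24.7, 23.1, 18.99, 24.4 and 23.5 FPKM in the controls and at 20.9, 34.6, 39.5, 34.2 and 21.8 FPKM in ASK1+hep livers. Both were above all controls in ASK1+hep replicates 2, 3 and 4, and Psme1 was below them in replicates 1 and 5 (adjusted p = 0.827 for Psme1 and 0.813 for Psme2 with limma). Psme3, the nuclear PA28 subunit, and Psme4, the activator PA200, had log2 fold changes of −0.02 and −0.14. Psme4 was at 11.6, 11.5, 11.3, 12.3 and 14.3 FPKM in the controls and at 12.0, 8.75, 8.02, 12.0 and 15.6 FPKM in ASK1+hep livers, lowest in the livers where Psme1 was highest (SE 0.16, adjusted p = 0.855 with limma). Its log2 fold change was −0.04 without ASK1+hep replicate 3, and 0.02 when the library labelled ASK1f/f replicate 5 was left out too. Psme2b, a single-exon gene of 837 bases related to Psme2, was at 21.3 to 44.4 FPKM in the controls and 24.0 to 37.8 FPKM in ASK1+hep livers, and how reads shared with Psme2 were counted is not given in the sources used here.

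The 20S assembly chaperones had a median of 0.28 over 4 genes, of which 3 were above 0. It was 0.16 without ASK1+hep replicate 3, and 0.14 without both that liver and the library labelled ASK1f/f replicate 5, where the alpha and beta rings had medians of 0.15 each. Psmg4, which works with Psmg3 on the alpha ring, had the largest difference of all proteasome genes, with 11.4, 12.2, 14.2, 12.1 and 12.9 FPKM in the controls and 13.2, 21.5, 29.4, 18.5 and 12.7 FPKM in ASK1+hep livers. ASK1+hep replicates 2, 3 and 4 were above all controls and replicates 1 and 5 within their range, with means of 12.6 ± 1.05 and 19.1 ± 6.86 FPKM (SD, n = 5 each). The log2 fold change was 0.50 (SE 0.20, unadjusted p = 0.026 and adjusted p = 0.813 with limma) and 0.34 without ASK1+hep replicate 3. At 555 bases Psmg4 was the shortest gene of the 47. Psmg1 and Psmg3 had log2 fold changes of 0.24 and 0.33. Psmg2, the partner of Psmg1 in the first step of ring assembly, was at 14.1, 13.1, 16.3, 13.2 and 11.8 FPKM in the controls and at 14.3, 10.5, 13.1, 14.1 and 13.6 FPKM in ASK1+hep livers, overlapping (log2 fold change −0.06, SE 0.11, adjusted p = 0.910 with limma).

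The last of the 50 genes that the name rule took, Psmc3ip, encodes a protein of meiotic recombination and not a proteasome subunit. It had 1 to 14 reads per liver and was not compared. The remaining genes are described by their class counts above.

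For most proteasome genes the ASK1+hep livers were further apart from each other than the control livers were. The SD of log2(FPKM + 1) was larger among ASK1+hep than among ASK1f/f livers for 44 of the 47 genes (93.6%, against 75% of all genes compared), with median SDs of 0.25 and 0.10 beside 0.22 and 0.13 over all genes. Without ASK1+hep replicate 3 it was larger for 40 (85.1%, against 65.9% of all genes), with a median of 0.20 in ASK1+hep livers.

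Within genotypes, the genes varied together in part and in opposition in part. After removal of the genotype means, the median Pearson correlation over the 10 livers was 0.26 for the 1081 pairs of proteasome genes, 0.83 for the pairs of the constitutive beta ring (0.73 without ASK1+hep replicate 3), 0.69 for the ATPases, 0.68 for the inducible subunits and −0.65 for the activators. Of all pairs, 378 were above 0.5 and 154 below −0.5. The closest pairs were Psmb6 with Psmb3 (r = 0.99), Psmb6 with Psmb5 (r = 0.98) and Psmb6 with Psmg4 (r = 0.98), and the most opposed were Psmg1 with Psmd1 (r = −0.96) and Psmb10 with Psmd1 (r = −0.92). With Psmb6, taken after its values were seen, 23 genes correlated above 0.5, among them 5 of the beta ring, and 8 below −0.5, Psmb7, Psma1, Psmc6, Psmd1, Psmd9, Psmd14, Psme3 and Psme4. These points share the libraries, their scaling and ASK1+hep replicate 3, and are given as a description.

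The 8 genes that opposed Psmb6 all had a gene length of 2820 bases or more, while Psmb3, Psmb5, Psmg4 and Psmc5 had 2300, 899, 555 and 1394 bases. Length did not separate the genes, since 6 others of 2820 bases or more correlated with Psmb6 above 0.5, namely Psma2 of 3673 bases (r = 0.94), Psmg3 of 2893 (r = 0.92), Psma7 of 3071 (r = 0.88), Psmb1 of 4595 (r = 0.88), Psmc2 of 5031 (r = 0.60) and Psmd11 of 6383 (r = 0.57). Across the 47 genes, the deviation from the ASK1f/f mean correlated with log2 gene length at r = 0.32, −0.37, −0.53, −0.39 and 0.29 in ASK1+hep replicates 1 to 5, beside 0.09, −0.20, −0.31, −0.26 and 0.19 across all 13261 genes in the same livers. In ASK1+hep replicate 3, the 24 genes of up to 2800 bases had a median deviation of 0.52 and the 23 longer ones 0.07. In the livers of ASK1f/f the correlations across proteasome genes ran from −0.49 to 0.33 and across all genes from −0.06 to 0.07. Genes are not independent replicates, and the part of gene length in the genotype differences was not tested.

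**Figure D5:**
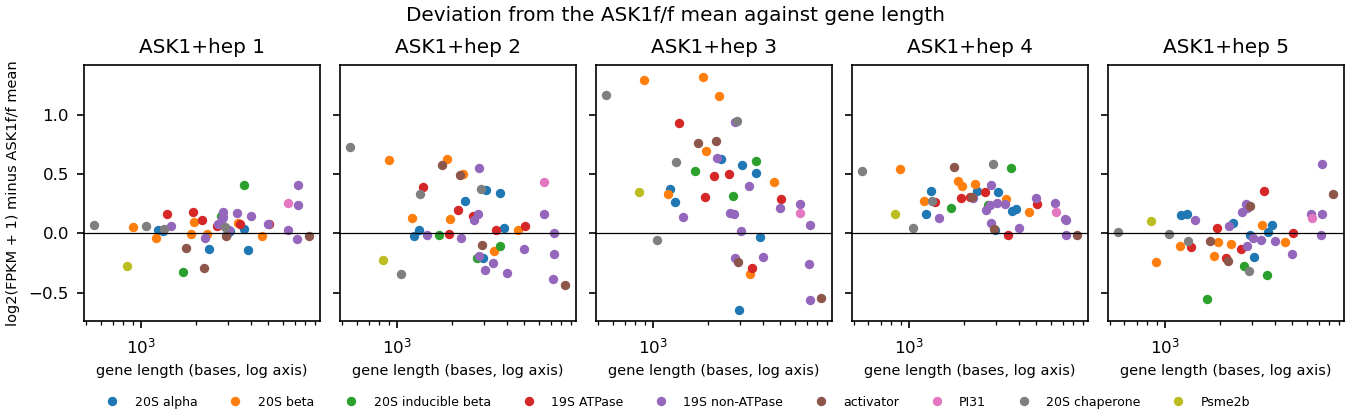
Deviation of log2(FPKM + 1) from the ASK1f/f mean (y axis) against the deposited gene length in bases (x axis, log scale) for the 47 proteasome genes in each ASK1+hep liver, coloured by class. Short genes lie high in replicates 2, 3 and 4 and the slope is turned in replicates 1 and 5.

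Outside the Psm symbols, 7 further genes of the particle or bound to it were compared, and 6 had a log2 fold change above 0 with a median of 0.13 (0 at an unadjusted p under 0.05 with limma and 0 with limma-voom). Pomp, the chaperone that joins the half-built cores, was at 20.6, 20.7, 22.2, 21.3 and 22.1 FPKM in the controls and at 22.9, 20.3, 31.1, 27.2 and 18.4 FPKM in ASK1+hep livers. The groups overlapped (log2 fold change 0.13, SE 0.13, adjusted p = 0.840 with limma), and the log2 fold change was 0.04 without ASK1+hep replicate 3. Of 6 genes of the NRF1 pathway, 3 were above 0 with a median of 0.0015 (0 at an unadjusted p under 0.05 with limma and 0 with limma-voom). Nfe2l1 itself was at 24.4, 30.1, 24.3, 22.2 and 26.0 FPKM in the controls and at 24.6, 27.1, 30.6, 24.3 and 26.5 FPKM in ASK1+hep livers, with a log2 fold change of 0.07 (SE 0.11, adjusted p = 0.889 with limma) that was −0.01 when scaled by all reads and 0.02 without ASK1+hep replicate 3.

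Rps27a, which encodes ubiquitin fused to a ribosomal protein, was at 36.3, 42.5, 39.5, 48.4 and 38.8 FPKM in the controls and at 48.1, 50.4, 108, 97.7 and 46.8 FPKM in ASK1+hep livers (a log2 fold change of 0.67, SE 0.24, unadjusted p = 0.017 and adjusted p = 0.813 with limma). Replicates 3 and 4 lay far above the highest control and replicate 2 slightly above it. The log2 fold change was 0.49 to 0.78 when 1 liver was left out. Rps27a is also 1 of the cytosolic ribosomal protein genes, whose median deviations were 0.33, 0.75 and 0.30 in ASK1+hep replicates 2, 3 and 4. The part of that shift in its values was not tested. Of 10 ubiquitin shuttle factors and cofactors, 6 were above 0 with a median of 0.03. Ufd1, a cofactor of the segregase that extracts ubiquitinated proteins, was at 6.95, 7.44, 6.97, 7.49 and 7.10 FPKM in the controls and at 7.34, 8.97, 10.8, 9.71 and 8.42 FPKM in ASK1+hep livers. It was above all controls in 4 of 5 ASK1+hep livers (log2 fold change 0.29, SE 0.10, unadjusted p = 0.018 and adjusted p = 0.813 with limma).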

How the data were processed

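Poly-A RNA of 10 mouse livers was sequenced. According to the study's methods, the authors mapped cleaned reads with Hisat2, counted them with FeatureCounts and deposited FPKM per gene, with gene lengths and positions. GEO's processing notes name fastp. Strand setting, build and annotation are not given in the sources used here. GENCODE M21 (GRCm38) held 54409 of the 54532 genes, 98.3% of them at the same position, also 48 of the 50 proteasome genes (not Psma8 and Psmb9).

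FPKM times gene length were whole multiples of 1 step per library (100% of values, tolerance 0.01 reads), which gave the reads. No 2 libraries were within sampling noise (lowest chi-square per degree of freedom 17.5). Genes that had 10 or more reads (after scaling to the median library) in 5 or more livers were compared on log2(FPKM + 1) with limma 3.58.1 in R 4.3.3, with a mean-variance trend, no covariates and Benjamini-Hochberg adjustment over 13261 genes. The pseudocount of 1 understates the fold changes of low genes. The fit was checked on simulated data with planted changes far larger than those of the proteasome genes. Recovery of differences of their size was not covered.

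The proteasome genes and the other lists were chosen with earlier results of these data known. Values in every liver were given for the catalytic pairs, Psme1, Psme2, genes with an unadjusted p under 0.05, the highest and lowest of each class, Pomp and Nfe2l1. Some listed genes are not reported here. Others named, such as Psmd12, were chosen after their values were seen. Groups and replicate numbers came from the labels, and p-values measure the spread between these livers. Alternatives were other filters, a pseudocount of 0.1, limma-voom with and without quality weights, scaling by all reads, the replicate block, the letters of the animal tag, and leaving out livers. The rule left out 4 pseudogenes (at most 2 reads each).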

Additional observations from a re-analysis of the deposited data

Results flagged for a closer look

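In 7 of the 78 groups of 5 livers examined, 1 liver stood apart from the other 4 of its genotype, with a gap to its neighbour above 0.71 of the group's range, which chance alone gives in about 1 of 20 groups. All 7 were among the ASK1f/f livers. The groups share livers, and several share genes, so 7 of 78 cannot be read against that rate. The library labelled ASK1f/f replicate 5, in which Map3k5 went against the label, stood above the others for Psmb5 (113 FPKM, next 99.5), for Psmd4 (45.5 FPKM, next 36.4) and for the summed 19S ATPases (235 FPKM, next 219), and below them for the log2 ratio of Psmb8 to Psmb5 (−3.20, next −2.91). ASK1f/f replicate 3 was highest for Psme1 (49.5 FPKM, next 40.4), lowest for Psme2 (18.99 FPKM, next 23.1) and highest for the log2 ratio of Psme1 to Psme2 (1.38, next 0.78). The same liver had the highest Psme2b of the 10, 44.4 FPKM.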

How the results depend on the processing

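No proteasome gene passed the adjusted threshold under any alternative. Over all genes the count of adjusted calls, 0, was 1 with limma-voom quality weights, 0 to 1 when 1 liver was left out, and 3 without both the library labelled ASK1f/f replicate 5 and ASK1+hep replicate 3, a setting added after the data were seen. The 3 proteasome genes higher at an unadjusted p under 0.05 became 5 without a filter, 9 with quality weights and 1 when scaled by all reads, and 0 to 16 when 1 liver was left out (0 without ASK1+hep replicate 2, 1 without ASK1f/f replicate 1, 11 without ASK1+hep replicate 1 and 16 without ASK1+hep replicate 5). Over all genes and in either direction, 765 of 13261 had an unadjusted p under 0.05 with limma. Without a filter it was 1222 of 26389 genes, of which 49 were proteasome genes. It was 968 of 13261 with quality weights and 857 of 13261 when scaled by all reads. When 1 liver was left out it ran from 553 to 1722, with 663 without ASK1f/f replicate 1. The cause was not tested.

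Log2 fold changes near 0 took the opposite sign for Psmb7 with quality weights (0.071), and for Psmb8 (−0.029), Psmc6 (−0.042) and Nfe2l1 (−0.0083) when scaled by all reads. Leaving out livers, the last pair together included, gave ranges of −0.041 to 0.12 for Psmb8, −0.081 to 0.11 for Psmb7, −0.245 to 0.10 for Psmb10, −0.050 to 0.13 for Psmc6, −0.255 to 0.018 for Psme4 and −0.11 to 0.012 for Psmg2. The count of proteasome genes above 0 ran from 33 to 42 and their median from 0.11 to 0.18. The chaperone median ran from 0.16 (without ASK1+hep replicate 3) to 0.40 (without ASK1+hep replicate 5). It was 0.14 without both ASK1+hep replicate 3 and the library labelled ASK1f/f replicate 5. Outside the settings that leave out 1 liver, 328 values were classed as unchanged, 7 as opposite in sign and 7 as moved. The median of the 3 inducible subunits, 0.045, was not classed as opposite in sign. It was nevertheless −0.029 when scaled by all reads, and −0.041 without both ASK1+hep replicate 3 and the library labelled ASK1f/f replicate 5.

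Replicate numbers are shared between genotypes, but same-numbered livers deviated together with correlations of 0.08, 0.17, 0.02, 0.17 and 0.09, not all above 0.1, so the numbers were not taken to pair the livers. The mean was 0.11, beside −0.03 for differently numbered livers. Most same-numbered livers carry neighbouring animal tag numbers, and whether they were littermates is not given in the sources used here. With the replicate block, 3 proteasome genes, Psmg4, Psmf1 and Psma4, were higher at an unadjusted p under 0.05 with limma and 0 passed the adjusted threshold. Psma4 (unadjusted p = 0.049 with limma) took the place of Psmd6 (unadjusted p = 0.086 with limma), and 874 of all genes had an unadjusted p under 0.05. Replicates 2 and 4 correlated best with their own number.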
